A study of Mus musculus with 20 samples.

Results

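The comparison described here set microglia taken 2 weeks after a full transection of the spinal cord (FT) against microglia taken 2 weeks after a lateral hemisection (HS). It used 6 of the 20 samples of the series, 3 FT and 3 HS, chosen by their labels alone, and all 16810 genes of the expression table. The donors were 12-week-old male mice, injured and non-injured (NI) alike heterozygous for an eGFP gene placed in the fractalkine receptor locus (CX3CR1+/eGFP). The cord was cut at the ninth thoracic segment, completely in FT and on 1 side in HS, and strongly eGFP-positive cells were sorted by flow cytometry from 1 cm of cord centred on the lesion. Blood monocytes carry the same reporter. The sort favoured microglia, but some macrophages that had entered the cord may have been included. The study describes the sorted cells as negative or low for the monocyte marker LY6C. That staining was a parallel experiment on non-injured and HS mice, and none is described for FT. Messenger RNA was sequenced after amplification from 10 ng of total RNA. The study describes biological replicates but not which mice entered which library, so the p-values below measure spread between samples only. In the main test that spread was taken from all 20 samples of the series, not from these 6 alone.

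Microglia are the resident macrophages of the central nervous system, and after a spinal cord injury they divide, clear debris and release chemokines that draw other immune cells. Part of this response is shared with antiviral defence. Type I interferons bind a receptor on the cell surface, transcription factors are activated, and a large set of interferon-stimulated genes are transcribed, several of which encode restriction factors, RNA sensors or chemokines. The question addressed was whether the severity of the lesion left a difference in these cells at 2 weeks.

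Values are given in CPM, read counts that the study describes as normalized by library size, and differences as log2(CPM + 0.5) in FT minus HS. The samples did not share 1 total: all genes summed to 987000 to 1082000 CPM in FT and 966400 to 1044000 CPM in HS. In NI they summed to 777400 to 830500 CPM, so the scaling was not by these totals alone. The 3 FT samples held 11565342, 12382288 and 12924021 reads and the 3 HS samples 6197341, 4589874 and 8645472 reads, so the depths did not overlap, and 1 read was worth 0.0764 to 0.0936 CPM in FT and 0.121 to 0.214 CPM in HS. The sorted cells carried microglial genes at similar sums in both groups: 10 identity markers, among them P2ry12, Tmem119 and Csf1r, summed to 20220 to 28770 CPM in FT and 21370 to 26720 CPM in HS. Markers of other cells were lower, with 12 astrocyte markers at 606.9 to 863.1 CPM in FT and 535 to 1131 CPM in HS, 11 oligodendrocyte markers at 481.5 to 2623 and 502.1 to 1437 CPM, and 14 T cell and NK cell markers at 11.5 to 24.7 and 16.7 to 17.9 CPM.

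A pair of features set single samples apart within each group. Rpl13, a ribosomal protein gene, stood at 194 CPM in FT replicate 3 and 107 CPM in HS replicate 2 but at 1126 to 1528 CPM in the other 4 samples, and the ferritin gene Fth1 was low in the same libraries (953 and 682 CPM against 6693 to 9114 CPM). Over the series 8 of 20 samples had under 400 CPM of Rpl13, which no label explains. The split reached many more genes. With it as a term of the limma fit, chosen after seeing the data, 798 genes were lower and 221 higher in the low samples (adjusted p under 0.05). All 8 low samples lay below all 12 others for 134 genes and above them for 1. Separately, both samples numbered 1 were low in 22 immediate-early genes, the fast transcription factors such as Fosb, Fos and Egr2 that cell handling can induce: these genes summed to 1977 CPM in FT replicate 1 and 3342 CPM in HS replicate 1 against 12140 to 15980 CPM in the other 4. Astrocyte markers (606.9 and 535 CPM against 792.4 to 1131 CPM) and oligodendrocyte markers (481.5 and 502.1 CPM against 1393 to 2623 CPM) were lowest in these 2 samples too, and the 3 NI samples held 1224 to 1638 CPM of the astrocyte markers. Results that rest on these samples are given below with and without them.

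Across all genes the limma test did not separate the 2 injuries at 2 weeks. Tested with limma over all 20 samples, 0 of 16810 genes (0.0%) reached an adjusted p under 0.05 with at least a 2-fold difference, and the smallest adjusted p was 0.9998. Without adjustment 438 genes (2.61%) had a p under 0.05, 228 higher (1.36%) and 210 lower (1.25%) after FT. Leaving out 1 of the 6 samples gave 0.94% to 1.98% higher and 1.06% to 1.96% lower, the background for the counts without 1 sample given below. With every column scaled to 1 total the counts were 129 and 330. Counted without a model, all 3 FT samples lay above all 3 HS samples for 748 genes (4.45%) and below for 622 (3.7%), 8.15% together, and for 443 and 896 genes with 1 total. On the reads recovered from the table, edgeR's quasi-likelihood test called 0 genes, its likelihood ratio test 1 gene (0.00595%) and DESeq2 1 gene, and in both cases the gene was Cxcl13.

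Whole samples were compared by their distances. The 9 distances between an FT and an HS sample, the root mean square log2 difference over genes, ran from 0.427 to 0.648 with a mean of 0.518, while the mean distance was 0.528 among the FT samples and 0.568 among the HS samples. The distance between injuries minus that within them was -0.0299 (one-sided exact permutation test, p = 0.8, where 0.1 is the smallest p that 3 against 3 samples allow). Each group held 1 sample with low Rpl13 and another sample numbered 1. Each pair within a group thus differed in at least 1 of these features. The test therefore cannot tell a small injury difference from the spread of these features. Replicates alike in both features lay at 0.449 (FT 1, HS 1), 0.427 (FT 2, HS 3) and 0.492 (FT 3, HS 2). The other pairs between injuries ran from 0.455 to 0.648.

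The size of difference that could have been missed depended on the level of the gene. The 95% limma interval lay within 2-fold in both directions for 13434 genes (79.9%), for 95.2% of those at 20 to 200 CPM but for 62.3% of those under 2 CPM, where 23 of the 50 genes with a fitted difference of 2-fold or more were found. For many genes of low level the interval thus reached beyond 2-fold. The part of depth in its width was not tested. The intervals are not adjusted over genes, so they do not say what an adjusted p would call.

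**Figure D1:**
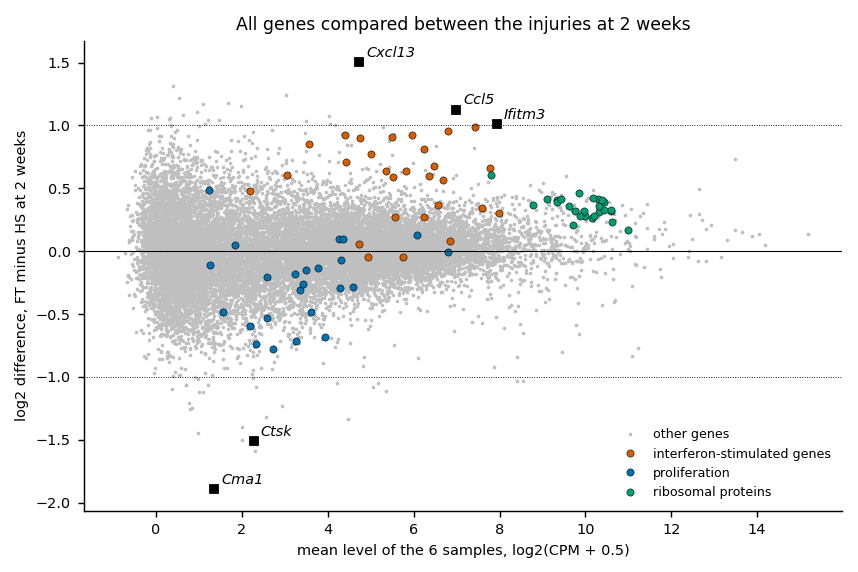
Log2 difference FT minus HS at 2 weeks (y axis) against the mean level of the 6 samples in log2(CPM + 0.5) (x axis), 1 point per gene, with 3 gene lists coloured and 5 genes named; dotted lines mark 2-fold. Interferon-stimulated genes lie mostly above 0 with a median of 0.62, proliferation genes mostly below with a median of -0.23, and ribosomal protein genes all above with a median of 0.34.

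The gene with the smallest limma p of all, Cxcl13, is also the gene that the study lists for this comparison. The study's call used edgeR on the same samples, so the values here are not independent of it. Cxcl13 (chr5:95956951-95961068, plus strand, mm10) encodes a chemokine that attracts B cells through the receptor CXCR5. It stood at 39.0, 38.7 and 38.0 CPM in the FT samples and at 17.3, 13.5 and 10.02 CPM in the HS samples. The NI samples held 0.238, 0.386 and 0.288 CPM, which is at or little above what 3 reads give. The FT samples were thus almost equal and lay above every HS sample, and both injuries lay above NI. The log2 difference was 1.50 ± 0.32 (limma SE from the spread of all 20 samples, n = 3 and 3). Its 95% interval was 0.85 to 2.16, and the difference was 1.31 to 1.69 when any 1 sample was left out. The adjusted p of Cxcl13 was 0.9998 in limma and 0.50 in edgeR's quasi-likelihood test. It was 0.00735 in edgeR's likelihood ratio test and 0.00665 in DESeq2, so the call of Cxcl13 depended on the model. At the earlier times the Cxcl13 difference was 0.46 at 1 week and 0.73 at 72 h, when its level was at most 2.62 CPM.

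Ccl5 (chr11:83525778-83530518, minus strand), a chemokine for T cells and monocytes, had a similar pattern. Its level was 171, 169 and 178 CPM in FT, 83.9, 77.8 and 75.1 CPM in HS, and 7.69, 10.3 and 10.9 CPM in NI. Both groups were tight and did not overlap. The log2 difference was 1.12 ± 0.26 (95% interval 0.58 to 1.67), with 1.09 to 1.17 when any 1 sample was left out, and the adjusted p was 0.9998 in limma and 0.16 in edgeR's likelihood ratio test. Ccl5 was also higher after FT at 1 week (0.68) and at 72 h (0.82), in other samples.

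Chemokines were also read as families. Of 13 CXC ligands, 2 (Cxcl13 and Cxcl10) were higher and 1 (Cxcl5) lower at an unadjusted p under 0.05 (15.4% and 7.69%, against 1.36% and 1.25% of all genes), with a median of 0.33. All FT samples lay above all HS samples for 3 of the 13 (all genes 4.45%), and for 8 without both samples numbered 1 (all genes 16.6%). The 2 higher ones became 4 without FT replicate 1 or HS replicate 3, 3 without HS replicate 2 and 1 without FT replicate 2 or 3. Cxcl10, an interferon-inducible ligand of CXCR3, stood at 61.9, 142 and 148 CPM in FT and 33.5, 92.1 and 73.7 CPM in HS, where sample 1 was the lowest of each group and the groups overlapped. Of 12 CC ligands, Ccl5 and Ccl8 were higher by the same measure and 0 lower, with a median of 0.036; without HS replicate 1 there were also 2 lower, without FT replicate 3 only 1 higher, and without HS replicate 2 there were 3. Ccl8, a monocyte chemoattractant, stood at 2.62, 5.83 and 6.64 CPM in FT and at 2.50, 1.92 and 2.42 CPM in HS, without overlap though FT sample 1 lay close to HS (difference 0.91 ± 0.32). The abundant ligands Ccl3 and Ccl4 had differences of -0.20 and -0.11 and overlapped widely. Among 13 chemokine receptors 0 passed in either direction, with a median of 0.016. Cxcr6, the receptor of Cxcl16 and outside that count, stood at 1.59, 3.48 and 2.21 CPM in FT and 0.312, 1.50 and 1.21 CPM in HS (1.01 ± 0.41).

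**Figure D2:**
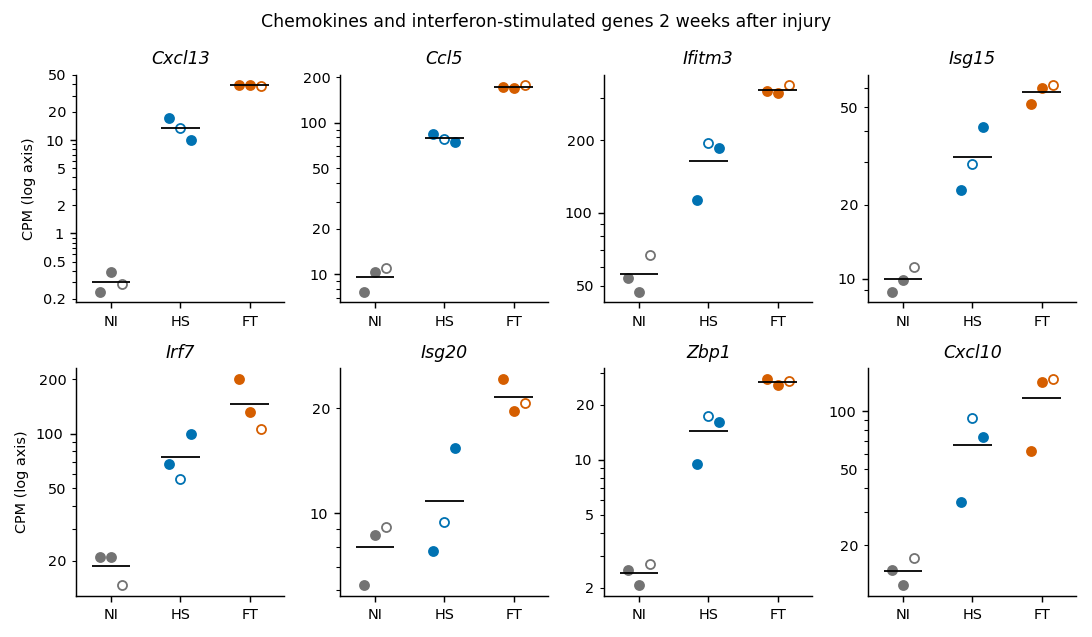
CPM (log axis) of 8 genes in the NI, HS and FT samples at 2 weeks, 1 point per sample and a bar at each group mean; open points are samples with under 400 CPM of Rpl13. All FT points lie above all HS points for 7 of the 8 genes, and Cxcl10 overlaps.

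Of the 42 gene lists read, interferon-stimulated genes had the largest share of members higher after FT at an unadjusted p under 0.05. Of 28 genes, all in the table, 16 had an unadjusted p under 0.05 with a higher level after FT (57.1%, against 1.36% of all genes) and 0 with a lower one, 26 had a positive difference, and the median was 0.62 against 0.0075 over all genes. The limma adjusted p was 0.9998 for each. In 16 of them (57.1%, against 4.45% of all genes) the 3 FT samples lay above the 3 HS samples. Summed over the list, FT samples held 2669, 2484 and 2284 CPM, HS samples 1343, 1912 and 1919 CPM and NI samples 625.7 to 774 CPM. Every FT sum lay above every HS sum, and HS replicate 1 was the lowest of the 6.

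The size of the interferon-stimulated group depended on the samples numbered 1. Without HS replicate 1 the count was 6 of 28 (all genes 1.75%) and without FT replicate 1 it was 8 (all genes 1.98%), while leaving out any other sample gave 14 to 16. Without both, an alternative chosen after seeing the data, 2 of 28 had an unadjusted p under 0.05 (all genes 1.57%), the median was 0.34, and FT lay above HS without overlap for 17 of 28 (all genes 16.6%). The low Rpl13 samples were treated in the same way: among the 2 FT and 2 HS samples with high Rpl13, FT lay above HS for 24 of 28 (all genes 15.7%), and of the 2 samples with low Rpl13 the FT one was higher for 20 of 28 (all genes 50.6%). With the Rpl13 split as a term of the limma fit, also chosen after seeing the data, the count stayed 16. By that measure 310 of all 16810 genes were higher after FT with the term, and 228 without it. The smallest adjusted p of all genes with the term was 0.0965, for Ifitm3. With the same term Ifitm3 had an adjusted p of 0.108 in edgeR's quasi-likelihood test, 0.00267 in its likelihood ratio test and 0.000533 in DESeq2, with a log2 difference of 0.99 that was just under the 2-fold limit of a call. With every sample of more than 4589874 reads thinned to that number, the count of interferon-stimulated genes was also 16.

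**Figure D3:**
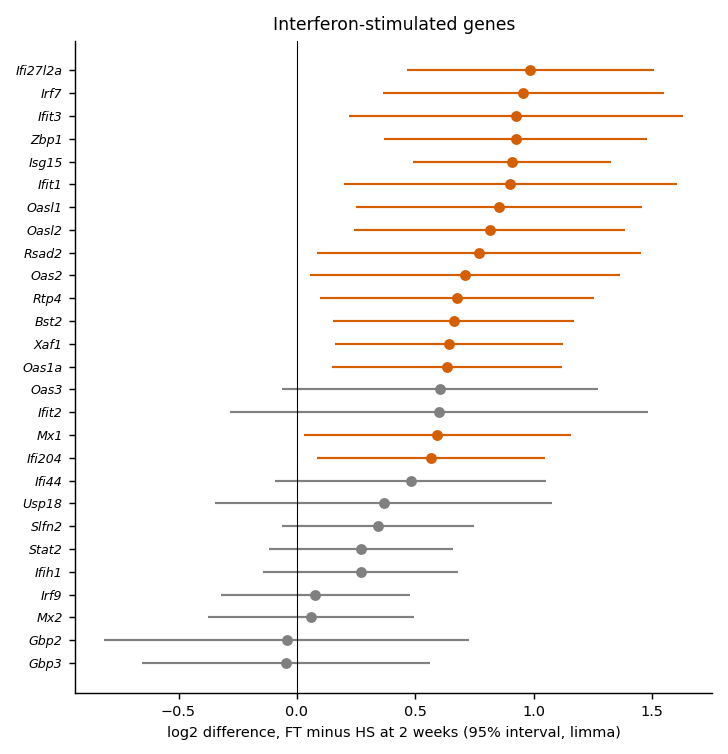
Log2 difference FT minus HS at 2 weeks (x axis) of 27 of the 28 interferon-stimulated genes (y axis), with 95% limma intervals; orange marks genes whose 3 FT samples lie above the 3 HS samples. 25 of the 27 points lie above 0 and the largest is Ifi27l2a at 0.99.

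Several restriction factors and sensors are given here with their values. Ifitm3, a membrane protein that blocks virus entry, stood at 319, 312 and 339 CPM in FT, 114, 195 and 185 CPM in HS and 53.7, 47.2 and 67.2 CPM in NI. The groups did not overlap, and the difference was 1.01 ± 0.24, or 0.76 to 1.15 without any 1 sample. It was kept outside the list of 28 because the study lists it among its pro-inflammatory genes. Its relatives were lower in level: Ifitm2 differed by 0.41 and Ifitm1, at most 2.00 CPM, by 0.30. Whether reads were split between these related genes was not examined.

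Isg15, a ubiquitin-like modifier, stood at 51.6, 59.6 and 61.5 CPM in FT and 23.1, 29.3 and 41.5 CPM in HS (0.91 ± 0.20). Ifi27l2a, a small interferon-induced membrane protein, stood at 216, 251 and 213 CPM in FT and 96.5, 112 and 136 CPM in HS (0.99 ± 0.25). In both genes HS replicate 1 was the lowest sample and no values overlapped. Zbp1, a sensor of Z-form nucleic acid, was at 27.8, 25.7 and 26.9 CPM in FT and 9.51, 17.3 and 16.2 CPM in HS (0.92 ± 0.27). The exonuclease gene Isg20, outside the list, was at 24.3, 19.6 and 20.7 CPM in FT and 7.80, 9.41 and 15.3 CPM in HS (1.01 ± 0.23), and its NI samples at 6.20 to 9.11 CPM overlapped the HS samples. Helz2, an interferon-induced helicase named here after its values were seen, stood at 32.0, 24.9 and 20.6 CPM in FT and 11.1, 15.0 and 13.5 CPM in HS (0.93 ± 0.23).

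Most oligoadenylate synthetases make the signal that activates RNase L, and the 6 genes of the family read here had a higher mean after FT. Oas1g stood at 12.2, 12.2 and 7.94 CPM in FT and 3.27, 2.99 and 7.25 CPM in HS (1.24 ± 0.33). Oas1a stood at 61.1, 50.2 and 37.3 CPM in FT and 26.0, 31.4 and 36.8 CPM in HS (0.63 ± 0.23). In both the lowest FT sample, replicate 3, was only just above the highest HS sample, replicate 3, and these paralogs lie side by side on chromosome 5 and may share reads. Oas2, Oasl1 and Oasl2 differed by 0.71, 0.85 and 0.81 without overlap, and Oas3 by 0.60 with overlap. The Ifit genes, which bind viral RNA, differed by 0.90 (Ifit1), 0.92 (Ifit3) and 0.60 (Ifit2, overlapping). Rsad2, or viperin, differed by 0.77, the tetherin gene Bst2 by 0.66 and the GTPase gene Mx1 by 0.59, each without overlap.

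Genes that act upstream in the pathway varied in their difference. Irf7, a transcription factor that amplifies the interferon response, stood at 201, 132 and 106 CPM in FT, 67.8, 56.7 and 99.4 CPM in HS and 20.8, 20.9 and 14.6 CPM in NI. FT replicate 3 and HS replicate 3 were close, and the difference was 0.96 ± 0.29. Stat2 and Irf9, which encode transcription factors of the pathway, differed by 0.27 and 0.08 with overlapping samples. Gbp2 and Gbp3, guanylate-binding protein genes that interferon gamma induces strongly, had differences of -0.04 and -0.05. The genes of the receptors, looked up after the values were seen, were close to equal: Ifnar1 differed by -0.08, Ifnar2 by 0.27, Ifngr1 by -0.08 and Ifngr2 by 0.14. Ifnb1, which encodes the ligand interferon beta and was also looked up afterwards, stood at 1.31, 21.5 and 21.7 CPM in FT and 2.81, 5.56 and 9.54 CPM in HS. FT replicate 1 was the lowest of the 6, so the groups overlapped and the difference of 0.71 had a 95% interval from -0.93 to 2.36.

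The starts of these genes were searched for the 10-letter core of the interferon-stimulated response element, GAAANNGAAA on either strand, from 250 bases before to 50 after the start (RefSeq, GRCm38.p6). Of the 28 genes 19 had an entry, and 11 of these (57.9%) held the core, against 3.99% of 27025 genes and 3.44% of all 32851 promoters. Among the members with an unadjusted p under 0.05 it was 6 of 10 (60.0%) and among the others 5 of 9 (55.6%). Oas2, Usp18, Mx1, Mx2, Ifi27l2a, Ifi204, Rtp4 and Zbp1 were among those without an entry. The 120 bases before the start are shown for 4 members that hold the core and for Irf7 and Cxcl13, which do not, with each match in capitals (a match on the other strand starts and ends with TTTC). They are Ifit1 at chr19:34640769-34640888 on the plus strand, Isg15 at chr4:156200819-156200938, Oas1a at chr5:120907526-120907645, Rsad2 at chr12:26456453-26456572 and Irf7 at chr7:141266425-141266544 on the minus strand, and Cxcl13 at chr5:95956819-95956938 on the plus strand. The matches began 104 and 85 bases before the start in Ifit1 and 120 bases before it in Rsad2, and those of Isg15, from 78 bases before it, and of Oas1a, from 20 bases before it, ran into each other. A match is a description of the letters, and no match says only that they are not in this window.
Ifit1: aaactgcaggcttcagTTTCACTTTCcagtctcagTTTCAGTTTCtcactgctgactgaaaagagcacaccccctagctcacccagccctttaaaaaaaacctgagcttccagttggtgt
Isg15: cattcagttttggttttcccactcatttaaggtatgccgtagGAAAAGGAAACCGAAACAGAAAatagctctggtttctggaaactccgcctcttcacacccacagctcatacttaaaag
Oas1a: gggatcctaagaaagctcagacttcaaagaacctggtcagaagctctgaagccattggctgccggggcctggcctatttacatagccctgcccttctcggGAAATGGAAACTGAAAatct
Rsad2: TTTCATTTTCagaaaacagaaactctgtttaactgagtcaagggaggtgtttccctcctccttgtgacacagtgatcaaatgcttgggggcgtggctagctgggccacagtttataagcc
Irf7: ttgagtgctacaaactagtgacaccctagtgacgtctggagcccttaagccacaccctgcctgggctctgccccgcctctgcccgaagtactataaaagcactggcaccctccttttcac
Cxcl13: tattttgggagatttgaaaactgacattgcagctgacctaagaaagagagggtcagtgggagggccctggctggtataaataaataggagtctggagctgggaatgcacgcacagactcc

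The interferon-stimulated genes leaned the same way at the earlier times, in other samples. At 72 h 26 of 28 had a positive difference with a median of 0.32, and 6 had an unadjusted p under 0.05 (Oasl2, Ifi44, Ifi27l2a, Bst2, Rtp4 and Zbp1), against 1.71% of all genes higher at that time. At 1 week 25 were positive with a median of 0.20 and 0 passed, against 1.72% of all genes. The difference at 2 weeks minus that at 1 week gave 0 genes (0.0%) past the adjusted threshold in limma, with 352 at an unadjusted p under 0.05; edgeR's quasi-likelihood test gave 0 and its likelihood ratio test and DESeq2 gave 1 each, Igfbp6, described below. Against 72 h all of these tests gave 0 (0.0% in limma), with 435 at an unadjusted p under 0.05 in limma. So a change of the injury difference over time was not shown for any of these genes. The 1-week comparison rested on 3 FT and 2 HS samples.

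**Figure D4:**
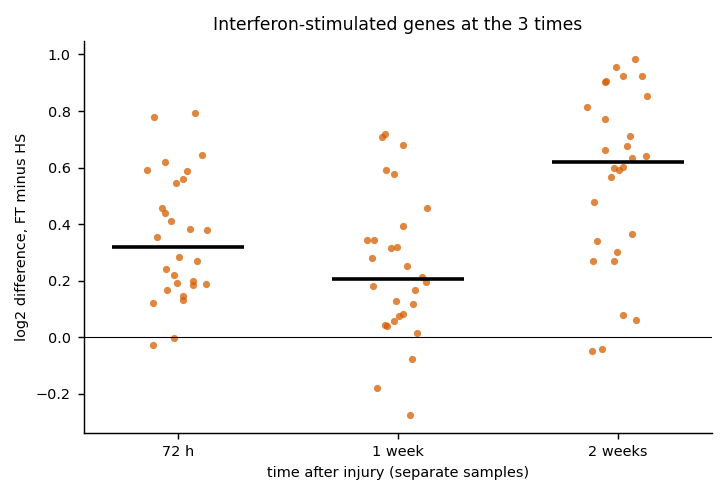
Log2 difference FT minus HS (y axis) of the 28 interferon-stimulated genes at 72 h, 1 week and 2 weeks after injury (x axis), 1 point per gene with a bar at the median; the times are separate samples. The medians are 0.32, 0.20 and 0.62, and most points lie above 0 at each time.

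The 12 genes with the largest higher level after FT, by the rule that also asked for no overlap, were Cxcl13, Oas1g, Pdpn, Ccl5, Mnda, Ifitm3, Cxcr6, Isg20, Xdh, Ifi27l2a, Irf7 and Prkd1. Their order and size chose them, so those values are a description. All 12 had a positive difference at 1 week (median 0.30) and 11 at 72 h (median 0.56), in samples the choice did not use. Of all 16810 genes 8117 and 8024 were positive at these times. An unadjusted p under 0.05 was found for 1 of the 12 at 1 week and 5 at 72 h (all genes 1.72% and 1.71% higher). Several of the 12, such as Irf7 and Ifi27l2a, are interferon-stimulated genes, so the 12 are not independent of each other. Pdpn, the gene of the membrane glycoprotein podoplanin, stood at 4.12, 5.40 and 5.19 CPM in FT and 1.87, 2.56 and 1.45 CPM in HS. Mnda, which encodes a nuclear protein of myeloid cells, stood at 17.6, 12.02 and 13.3 CPM in FT and 3.74, 8.98 and 8.57 CPM in HS. Xdh, the gene of xanthine dehydrogenase in purine breakdown, was at 64.8, 42.8 and 45.9 CPM in FT, 31.2, 25.6 and 19.7 CPM in HS and 5.79 to 7.39 CPM in NI.

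Genes of cell division leaned the other way. Of 24 proliferation genes, 6 (Aurkb, Ccnb1, Rrm2, Top2a, Kif11 and Mki67) were lower after FT at an unadjusted p under 0.05 and 0 higher, against 1.25% of all genes. For 5 of the 24 (20.8%, against 3.7% of all genes) all FT samples lay below all HS samples. The median was -0.23. The count of 6 became 2 without FT replicate 2 or without HS replicate 1 and 4 without FT replicate 3, and leaving out 1 of the other samples gave 5 to 7, with 1 gene higher only without HS replicate 1. Thinned to equal depth the count was 3. Without both samples numbered 1 it was 3 as well.

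Top2a, the topoisomerase of dividing cells, stood at 14.2, 8.79 and 11.2 CPM in FT, 19.8, 20.7 and 14.7 CPM in HS and 9.12, 7.08 and 6.81 CPM in NI. The highest FT sample was just under the lowest HS sample, and the difference was -0.68 ± 0.22. Aurkb, a kinase of chromosome segregation, stood at 5.24, 4.09 and 3.74 CPM in FT, 7.64, 8.12 and 7.49 CPM in HS and 2.40 to 3.09 CPM in NI (-0.78 ± 0.26). Mki67, the Ki-67 proliferation marker, stood at 9.27, 8.97 and 10.5 CPM in FT and 15.1, 13.9 and 11.8 CPM in HS (-0.48 ± 0.19). In all 3 genes both injuries stayed above the NI mean. The mitotic motor gene Kif11 stood at 4.49, 3.92 and 4.74 CPM in FT and 7.64, 6.63 and 5.56 CPM in HS (-0.54 ± 0.21). Genes of DNA replication were mixed: Rrm2, a ribonucleotide reductase gene, differed by -0.71, while Pcna differed by 0.00, Mcm3 by 0.13 and Mcm6 by 0.09, none of these 3 past that threshold. Cdkn3, a phosphatase gene that peaks in dividing cells and lies outside the list, was at 2.06, 1.22 and 1.76 CPM in FT and 3.59, 3.85 and 3.38 CPM in HS (-0.93 ± 0.26).

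**Figure D5:**
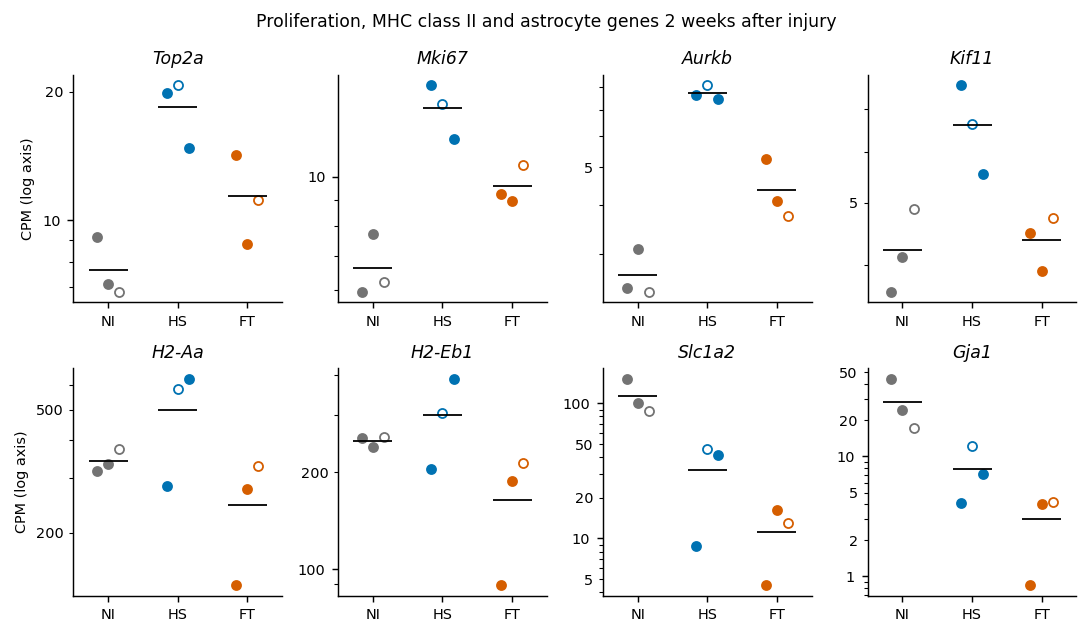
CPM (log axis) of 8 genes in the NI, HS and FT samples at 2 weeks, 1 point per sample and a bar at each group mean; open points are samples with under 400 CPM of Rpl13. The FT points lie below the HS points without overlap for Top2a, Mki67, Aurkb and Kif11, while H2-Aa, H2-Eb1, Slc1a2 and Gja1 overlap and sample 1 is the lowest of each injured group for H2-Aa, H2-Eb1, Slc1a2 and Gja1.

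Some genes of antigen presentation by MHC class II had lower means after FT. H2-Aa, which encodes a chain of a class II molecule, stood at 134.8, 276 and 329 CPM in FT, 284, 583 and 631 CPM in HS and 316, 334 and 372 CPM in NI. H2-Eb1 stood at 89.2, 188 and 214 CPM in FT and 204, 306 and 390 CPM in HS. Each gene ran low in both samples numbered 1, the groups overlapped, and the differences were -1.03 ± 0.41 and -0.92 ± 0.38. H2-Ab1 and the invariant chain gene Cd74 had differences of -1.03 and -0.77. Of 14 members H2-Aa and H2-Eb1 were lower at an unadjusted p under 0.05 (14.3%, against 1.25% of all genes) and 0 higher. The count was 0 when FT replicate 1, HS replicate 2 or HS replicate 3 was left out and 4 when FT replicate 2 or HS replicate 1 was, and the median was -0.096. Of 13 MHC class I genes 12 had a positive difference, with a median of 0.21 and 0 past that threshold.

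Some lower genes are known from other cells. Cma1, the chymase gene of mast cells, had the largest lower value by the rule, at 0.187, 0.522 and 1.15 CPM in FT, 2.34, 4.28 and 3.87 CPM in HS and 0.298 to 0.480 CPM in NI. The groups did not overlap and the difference was -1.89 ± 0.55, but FT replicate 1 lay under the 0.281 CPM that 3 reads give. A pair of other mast cell genes, looked up afterwards, were lower in mean as well: Tpsb2 was at 0.468, 1.31 and 3.36 CPM in FT and 2.50, 5.77 and 7.61 CPM in HS, and Cpa3 at 0.187, 0.522 and 1.45 CPM in FT and 0.468, 4.06 and 2.05 CPM in HS. Both overlapped. In bulk samples such as these, fewer cells of a type and less RNA per cell cannot be told apart.

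Among 12 astrocyte markers 4 were lower and 1 higher at an unadjusted p under 0.05 (33.3% and 8.33%, against 1.25% and 1.36% of all genes), with a median of -0.46. The 4 became 8 without HS replicate 1, 5 without FT replicate 2, 1 without HS replicate 2 or HS replicate 3 and 0 without FT replicate 1. Among the 2 FT and 2 HS samples with high Rpl13 the median was -0.193. There FT lay above HS for 2 of the 12 (all genes 15.7%) and below for 1. Between the 2 samples with low Rpl13 the median was -1.0, and the FT one was higher for 2 of the 12 (all genes 50.6%). The lower astrocyte median thus lay mainly in this 1 pair of samples. The glutamate transporter gene Slc1a2 stood at 4.49, 16.3 and 12.9 CPM in FT, 8.73, 46.0 and 41.5 CPM in HS and 87.4 to 152 CPM in NI. Gja1, the connexin 43 gene, stood at 0.842, 4.005 and 4.20 CPM in FT, 4.05, 12.2 and 7.13 CPM in HS and 17.4 to 44.4 CPM in NI. Sample 1 was the lowest of each injured group, the groups overlapped, and NI was the highest group. Aldh1l1 was the 1 higher marker, at 5.52, 8.45 and 3.90 CPM in FT and 1.71, 2.99 and 5.07 CPM in HS. Of the lower genes chosen by the rule, Slc4a4, a bicarbonate transporter gene that astrocytes express, was at 2.25, 2.87 and 2.52 CPM in FT, 3.28, 8.55 and 6.16 CPM in HS and 15.6 to 23.6 CPM in NI. Cldn10, a claudin gene, was at 0.374, 0.522 and 0.687 CPM in FT, 1.87, 3.85 and 1.57 CPM in HS and 4.38 to 9.18 CPM in NI. Ntm, the gene of the neural adhesion protein neurotrimin, was at 0.281, 0.522 and 0.535 CPM in FT, 0.624, 3.42 and 2.05 CPM in HS and 4.12 to 5.72 CPM in NI. All 3 followed the order of the astrocyte markers, NI above HS above FT in mean, and the part of astrocyte RNA in these values was not tested.

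Ctsk, the gene of the collagen-cutting protease cathepsin K, was lower by the rule mainly through 1 sample. It stood at 1.78, 1.83 and 1.15 CPM in FT and 14.8, 3.85 and 2.54 CPM in HS, so HS replicate 1 was far above the others, and the difference of -1.51 became -0.82 without it. The other genes among the 12 lower ones were Alpl, Gm13315 (a pseudogene), Pfkfb1, Abca16, Zfp248, Adam23 and Cdkn3, with differences from -1.12 to -0.93 and levels of at most 6.86 CPM. At 1 week 6 of the 12 had a positive and 6 a negative difference (median 0.0075), and at 72 h 8 were negative (median -0.083), so the lower genes, unlike the higher ones, had no common direction at the other times. Whether the 2 sets differ in this was not tested.

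For other programmes of microglia at 2 weeks the differences were small or varied with the sample. Among 22 homeostatic genes 0 passed an unadjusted p under 0.05, with a median of -0.048: Tmem119 stood at 698, 720 and 654 CPM in FT and 787, 447 and 835 CPM in HS, both below the 1196 to 1263 CPM of NI. Among 25 genes of disease-associated microglia 1 was higher by that measure (Timp2, 0.42; 4.0% against 1.36% of all genes), 0 lower, and the median was 0.11. The count was 0 without any 1 of the FT samples or HS replicate 2, in edgeR and DESeq2 on the reads, after quantile normalization and with 1 total. Spp1, the osteopontin gene, was at 3748, 2961 and 2894 CPM in FT and 3499, 4390 and 3206 CPM in HS against 79.4 to 108 CPM in NI, and Gpnmb at 238, 260 and 212 CPM in FT and 252, 237 and 244 CPM in HS against 2.57 to 3.36 CPM. Apoe varied within groups more than between them, at 25540, 10890 and 5402 CPM in FT and 17050, 2878 and 6650 CPM in HS (0.73, 95% interval -0.88 to 2.35). For the 12 pro-inflammatory genes that the study names, a list chosen on these samples and thus no independent evidence, the median was 0.13. Ifitm3 and Cxcl10 were higher by that measure (against 1.36% of all genes) and 0 lower. The count higher was 3 without FT replicate 1, and 1 without FT replicate 2, FT replicate 3 or HS replicate 1. For the study's 9 anti-inflammatory genes the median was 0.056. Arg1 was the 1 lower (against 1.25% of all genes), with 0 lower without FT replicate 1, FT replicate 2 or HS replicate 3. Arg1 stood at 1.22, 1.04 and 1.30 CPM in FT and 0.624, 9.62 and 7.13 CPM in HS, where HS replicate 1 was the lowest of all 6. Of the lists not described here, none had more than 2 members past an unadjusted p under 0.05 in either direction.

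All 26 ribosomal protein genes had a positive difference, a median of 0.34 that was 0.27 with every column scaled to 1 total and 0.21 after quantile normalization. For 13 of them the FT samples lay above the HS samples (all genes 4.45%), 6 with 1 total. An unadjusted p under 0.05 was found for 2, Rpl11 and Rpl18 (7.69%, against 1.36% of all genes), and this count moved with single samples (4 without FT replicate 1, and 0 without FT replicate 2, HS replicate 1 or HS replicate 2). The same list had a median of 0.40 at 1 week and -0.13 at 72 h. Among the 2 FT and 2 HS samples with high Rpl13, FT lay above HS for 21 of the 26 (all genes 15.7%), and the FT sample with low Rpl13 was above its HS counterpart for 25 (all genes 50.6%).

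The 8 genes that the study lists between the injuries at 1 week were read at 2 weeks as well, where 3 (Folr2, Gpx3 and Igfbp6) were higher after FT at an unadjusted p under 0.05 (37.5%, against 1.36% of all genes) and 0 lower, or 1 without FT replicate 2. Folr2, a folate receptor gene of macrophages, stood at 14.9, 20.8 and 15.2 CPM in FT and 9.67, 10.7 and 8.70 CPM in HS, and differed by 0.77 at 2 weeks and 1.88 at 1 week. Gpx3, a secreted glutathione peroxidase gene, stood at 34.3, 23.7 and 24.2 CPM in FT and 16.7, 15.2 and 20.8 CPM in HS (0.62 at 2 weeks and 1.39 at 1 week). Igfbp6, which encodes a binding protein of insulin-like growth factors, had opposite signs at the 2 times. At 2 weeks it stood at 4.02, 5.49 and 4.05 CPM in FT and 1.87, 2.56 and 3.26 CPM in HS, a difference of 0.72. At 1 week the FT samples were at 2.37 to 2.60 CPM and the HS samples at 6.54 to 7.58 CPM, a difference of -1.35. The difference between the times was 2.07 ± 0.38 with an adjusted p of 0.382 in limma, 0.011 in edgeR's likelihood ratio test and 0.0236 in DESeq2, so its call depended on the model too, and the 1-week value rests on 2 HS samples.

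Over all genes, the injury difference at 2 weeks correlated weakly with that at 1 week (Pearson's r = 0.192 and Spearman's rho = 0.223 over 14051 genes) and with that at 72 h (0.02 and 0.0292). These are correlations across genes of group means, genes are not independent replicates, and the comparisons share no injured sample.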

How the data were processed

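RNA-seq of sorted microglia had been mapped by the authors to mm10 with TopHat2 2.0.9, counted per gene with HTSeq 0.5.4p3 and normalized with edgeR 3.3.6, after dropping genes without 10 reads in at least 2 replicates. The deposited table of the authors holds the resulting signal for 16810 genes and 20 samples in 7 groups. The values are read counts that the study describes as normalized by library size (CPM), with column totals that differ between samples. The strand setting of the counting was not given in the sources used here. All 336200 values came out as whole multiples of what 1 read is worth in their sample, within 0.001 of a read, so reads and depth were recovered. limma 3.58.1 in R 4.3.3 (trend) was fitted to log2(value + 0.5) over all 20 samples with the group as the only term, p-values were adjusted by Benjamini-Hochberg over all genes, and a gene was called at an adjusted p under 0.05 and at least 2-fold. edgeR 4.0.16 and DESeq2 1.42.0 on the recovered reads were alternatives, as were other pseudocounts (0.1 and 1), filters, scalings, thinning to 4589874 reads and leaving out each sample. The scripts were tested on simulated data. Sample distances were compared by exact permutation.

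Genes were named by rule: Cxcl13 and the study's 8 genes at 1 week, the 12 higher and 12 lower genes with the largest difference among those with an unadjusted p under 0.05, no overlap and a mean of at least 2 CPM in 1 group, the members of each list with such a p (or else the member with the largest difference), and any gene that an alternative called. Of 42 lists, most are textbook sets and markers and a few are the study's. Members and lists were chosen with earlier results of these data known. Promoter sequences are from RefSeq (GRCm38.p6) and gene positions from an annotation of the same build. Values of a few single genes are not reported here.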

Additional observations from a re-analysis of the deposited data

How the results depend on the processing

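The count of called genes, 0 in limma, was 1 in edgeR's likelihood ratio test and 1 in DESeq2 (Cxcl13), and 2 in each of these with the Rpl13 split as a term (Cxcl13 and Ccl5), an alternative chosen after seeing the data. The difference from 1 week gave 1 gene in each of these 4 fits (Igfbp6) and 0 otherwise. Genes without overlap, 1370 of 16810, were 2365 to 3219 when 1 sample was left out and 5225 without both samples numbered 1, since fewer samples were compared. Genes at an unadjusted p under 0.05 were 331 (DESeq2) to 625 (without HS replicate 1). The distance result stayed between -0.0309 and -0.026. For the 91 named genes, 2087 of 2093 values under alternatives kept their side of the threshold, the exceptions being Cxcl13 and Ccl5, and 20 values of 10 genes had the opposite sign. Of 588 list medians 34 moved by more than 1 SD; the cause was not tested. No label says whether the replicate numbers pair the samples. Same-numbered samples had correlations of 0.444, 0.0017 and -0.0967 in their deviations from the group means. The 0.444, for the samples numbered 1, was the highest of all FT and HS pairs, and a shared batch of these samples was not tested. The limma fit with the replicate number as a block gave 0 called genes and 429 at an unadjusted p under 0.05. Not every FT and HS sample correlated best with its own number. The limma intervals were widest in median for genes under 2 CPM (half-width 0.698 in log2). With 3 samples a group, a difference under 2-fold could not be called under the fold limit.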
